A study of Mus musculus with 6 samples.

Results

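The 10 genes described here are the melanocyte and pigment genes Tyr, Tyrp1, Dct, Pmel, Mlana, Slc45a2, Oca2, Mitf, Mc1r and Kitl, taken by symbol from 26644 genes listed in any of 3 deposited tables. They were set in a group of 7 genes for the enzymes and proteins of the melanosome, called the melanin genes below, and a group of 3 lineage and signalling genes (Mitf, Mc1r and Kitl). The tables come from RNA sequencing of mouse skin during wound healing, with or without C-PC, that is C-phycocyanin, a blue light-harvesting protein taken from Spirulina. There are 6 groups of 1 library each: control skin with no treatment at the early, middle and late stage, and skin with C-PC at the same 3 stages. The labels state no strain, age, dose or day, and nothing says whether a library holds 1 animal or several.

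Each library held between 15863637 and 18028674 reads on genes. The libraries also differed in what tissue they carried. In CPM, read counts scaled to each library's total reads on genes, the 10 skeletal muscle markers summed to 131332 in middle C-PC and to 127052 in the late control, against 1918 to 10982 in the other 4 libraries. Epidermal keratin Krt5, a defining gene of skin, had 0 reads in the early control, the middle C-PC and the late control libraries. With 1 library a group no p-value was computed within a stage, and every within-stage ratio compares 2 libraries.

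Melanocytes are the pigment cells of the skin and the hair follicle. They make melanin inside melanosomes, organelles in which tyrosinase (Tyr) starts the oxidation of tyrosine and Tyrp1 and Dct act on later intermediates. Mitf is the transcription factor that directs the lineage and activates the pigment genes, Mc1r is the receptor for melanocyte-stimulating hormone, and Kitl is the ligand of the receptor Kit, made by neighbouring skin cells such as keratinocytes. In mouse skin with hair, pigment is made mostly in follicles that are growing.

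The promoters of 4 members are shown because each holds the letters TCATGTG, the M-box type of E-box at which Mitf is known to bind in pigment gene promoters. RefSeq entries on GRCm38.p6 were found for 7 of the 10 members, in 9 windows of 250 bases before an annotated start, since Mitf has 3; Pmel, Mlana and Slc45a2 are named only. Capitals mark the motif on either strand (TCATGTG, or CACATGA for the other strand), sequences run 5′ to 3′ on the strand of the gene up to the base before its start, and position -1 is that last base. The stretches printed are the last 62 bases of the window for Tyr, the last 87 for Tyrp1 and all 250 for Dct. They are chr7:87493513-87493574 on the minus strand for Tyr, chr4:80834126-80834212 on the plus strand for Tyrp1 and chr14:118052247-118052496 on the minus strand for Dct.
Tyr: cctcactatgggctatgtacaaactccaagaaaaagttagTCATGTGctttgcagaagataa
Tyrp1: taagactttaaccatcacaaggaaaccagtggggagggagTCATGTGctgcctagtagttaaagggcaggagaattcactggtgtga
Dct: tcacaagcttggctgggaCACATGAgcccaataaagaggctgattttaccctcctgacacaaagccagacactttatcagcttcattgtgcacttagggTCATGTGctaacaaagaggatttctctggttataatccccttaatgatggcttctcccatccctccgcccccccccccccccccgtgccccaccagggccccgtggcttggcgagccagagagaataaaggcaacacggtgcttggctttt
The stretch printed for Mc1r, the last 92 bases of its window, is chr8:123406990-123407081 on the plus strand.
Mc1r: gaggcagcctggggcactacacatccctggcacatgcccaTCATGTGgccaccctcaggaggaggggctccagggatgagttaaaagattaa
The motif begins at -22 in Tyr, at -47 in Tyrp1, at -52 in Mc1r, and at -232 and -151 in Dct. Positions count from the RefSeq start. For Tyrp1 the stretch printed lies within the gene as the deposited coordinates place it, from 80834123 on. The Oca2 window held the shorter CATGTG, at -186, without the leading T. Neither CATGTG nor CACGTG was found in the Kitl window or the 3 Mitf windows. Among 32851 windows of the same length from 27025 genes, TCATGTG or its reverse was found in 3.25%, CATGTG, which lies within it, in 12.3%, and CACGTG in 6.02%. A match describes the letters only.

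At the late stage the C-PC library held all 3 melanin enzymes at high levels and the control library held almost none. Tyr (GRCm38 chromosome 7, 87424771 to 87493512, minus strand) had 0 reads in the early control, 2 in early C-PC, 3 in the middle control, 0 in middle C-PC, 0 in the late control and 2549 in late C-PC. The last count is 149.6 CPM (95% Poisson interval 143.9 to 155.6). With the floor of 3 reads in the late control it is at least 552-fold higher. Folds of single genes within a stage use the authors' scaling of the pair and not CPM. Intervals and floors here cover counting error only, as each group is 1 library. They may be too narrow even for that, since reads without molecular identifiers are not independent molecules. Every library other than late C-PC was near 0 for this gene.

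Tyrp1 (chromosome 4, 80834123 to 80851719, plus strand), which stabilises tyrosinase and acts late in eumelanin synthesis, was not listed at the early stage, where only genes with at least 2 reads over the pair appear. It had 8 reads in the middle control, 1 in middle C-PC, 0 in the late control and 5964 in late C-PC. The late C-PC level was 350.1 CPM, and on the authors' scaling it was at least 1292-fold above the late control. Dct (chromosome 14, 118012790 to 118052244, minus strand), or dopachrome tautomerase, had 2 reads in each early library, 19 in the middle control, 6 in middle C-PC, 19 in the late control and 10001 in late C-PC. At 587.1 CPM it was the member with the most reads in late C-PC. Its late ratio, log2 of the deposited scaled values plus 2 with C-PC over control, was 8.30 (95% interval 7.77 to 9.15; intervals are for the ratio without the added 2). Dct is thus the enzyme gene whose control count is large enough to bound its ratio from both sides.

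**Figure D1:**
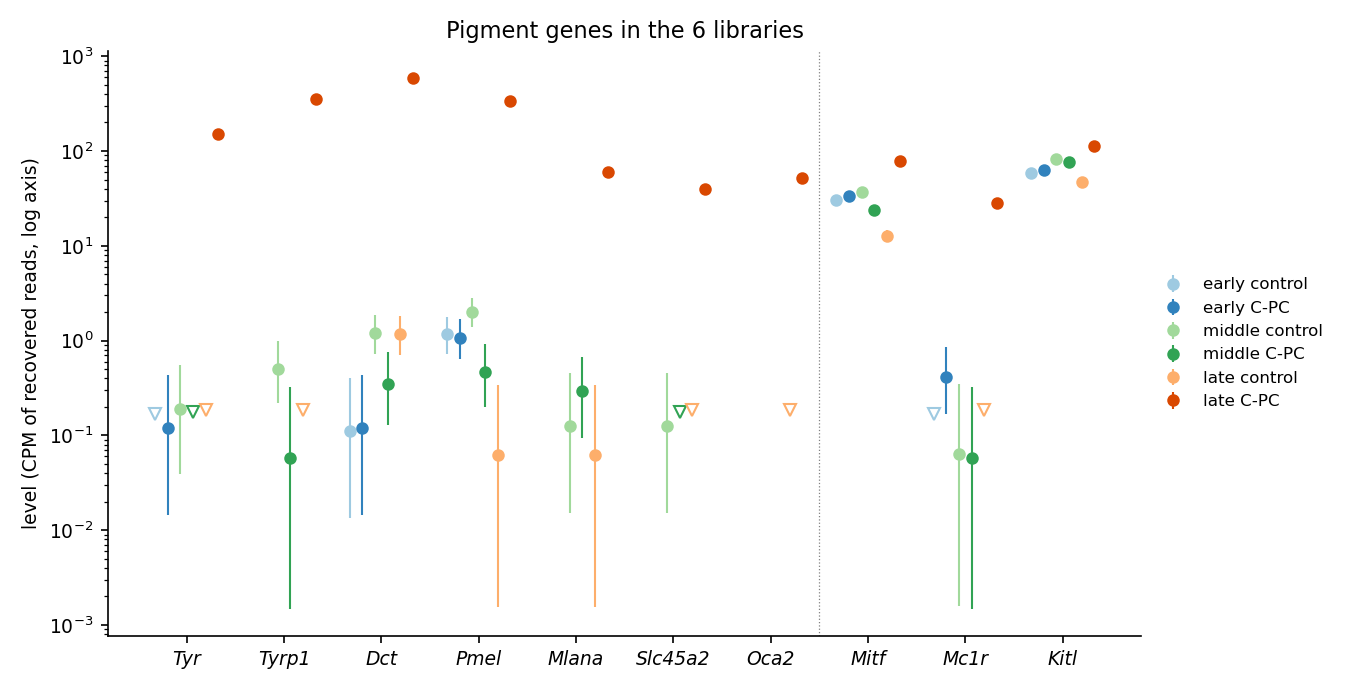
Level of each member in each library, in CPM on a log axis, with 95% Poisson bars, open triangles at the floor of 3 reads where a library had 0 reads, and no point where a gene was not listed; the dotted line separates the 7 melanin genes from Mitf, Mc1r and Kitl. On this scale the late C-PC library is the highest for all 10 genes, though for Kitl middle C-PC is higher after TMM (101.8 against 95.3 CPM), and Mitf and Kitl are well above the floor in every library.

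The 4 other melanin genes were also highest in late C-PC. Pmel (chromosome 10, 128704195 to 128720238, plus strand), whose protein forms the fibrils on which melanin is laid down, had 21 reads in the early control, 18 in early C-PC, 32 in the middle control, 8 in middle C-PC, 1 in the late control and 5720 in late C-PC. Against that single control read the late fold without an added constant was 3717, with a counting interval of 667 to 146838. Pmel shares 837 bases with Cdk2, a cell cycle kinase gene on the opposite strand, and 105 bases with Dgka, and the library kit does not mark the strand. Cdk2 had 794, 721, 553, 141, 143 and 1031 reads in the order given for Pmel, so the low Pmel counts outside late C-PC cannot be told apart from reads of Cdk2. The 5720 reads of Pmel in late C-PC exceeded the 1031 of Cdk2.

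Mlana (chromosome 19, 29697921 to 29708448, plus strand), the melanosome protein known as melan-A, was not listed early and had 2 reads in the middle control, 5 in middle C-PC, 1 in the late control and 1013 in late C-PC. Its late fold was 658 with a counting interval of 118 to 26026. Slc45a2 (chromosome 15, 11000721 to 11029233, plus strand), a transporter of the melanosome needed for full pigmentation, was not listed early and had 2 reads in the middle control, 0 in middle C-PC, 0 in the late control and 676 in late C-PC. It was at least 146-fold higher in late C-PC. Oca2 (chromosome 7, 56239760 to 56536518, plus strand), the melanosomal membrane protein of the pink-eyed dilution locus, was not listed at the early or middle stage. It had 0 reads in the late control and 888 in late C-PC, at least 192-fold higher. In none of the 7 melanin genes did any library other than late C-PC pass 32 reads.

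Mitf and Kitl had at least 206 reads in every library, while no melanin gene passed 32 reads outside late C-PC. Dct and Pmel were also read in all 6 libraries, at those low counts outside late C-PC. Mitf (chromosome 6, 97807052 to 98021349, plus strand) had 552 reads in the early control, 569 in early C-PC, 581 in the middle control, 406 in middle C-PC, 206 in the late control and 1328 in late C-PC. These counts are 30.6, 33.8, 36.6, 23.6, 12.7 and 78.0 CPM. Mitf was lowest in the late control and highest in late C-PC, and it is also active in other cells such as mast cells and macrophages. The late log2 ratio was 2.06 (1.85 to 2.29) on the authors' scaling, or 4.19-fold without the added constant. Scaled by total reads, as the CPM are, the late ratio was 2.60, outside that interval. Reads were counted over the whole gene, so the melanocyte form of Mitf was not separated from the others.

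Mc1r (chromosome 8, 123407107 to 123410744, plus strand) had few reads outside late C-PC, as the melanin genes did. It had 0 reads in the early control, 7 in early C-PC, 1 in each middle library, 0 in the late control and 481 in late C-PC, which is at least 104-fold higher at the late stage. Kitl (chromosome 10, 100015630 to 100100416, plus strand) had 1066, 1062, 1296, 1320, 768 and 1932 reads in the early, middle and late pairs, control first in each pair. By total reads late C-PC was the highest and the late control the lowest, at 113.4 and 47.4 CPM. After TMM over the 6 libraries both places changed, with middle C-PC highest (101.8 CPM, against 95.3 in late C-PC) and the early control lowest (50.6 CPM, against 62.6 in the late control). Its late log2 ratio of 0.71 (0.59 to 0.83), or 1.63-fold, was under 2-fold on the authors' scaling and 1.26 when the pair was scaled by total reads. In bulk skin, fewer cells of a type and less RNA per cell cannot be told apart.

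Counted over the members, 9 of the 10 were at least 2-fold higher in late C-PC and 0 were lower, with Kitl under 2-fold. A gene was compared where 1 library of the pair had 10 reads or more. Among all 17073 genes compared at this stage 27.3% were at least 2-fold higher and 23.4% lower. The median log2 ratio of the 10 members was 8.20, or 7.78 with genes at 0 in the control set at their floor, against 0.15 for all genes compared. The 7 melanin genes lay between 7.97 and 11.23 with a median of 8.49 (8.30 at the floor), while the 3 lineage genes had a median of 2.06. Under scaling by total reads the all-gene median at this stage was 0.69 and not 0.15, 72.1% of calls and not 53.8% were higher, and all 10 members were at least 2-fold higher. In the authors' deposited table, the late adjusted p of Kitl was 0.188 and that of Mitf 1.77e-05; these compare 2 libraries and not the treatment.

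**Figure D2:**
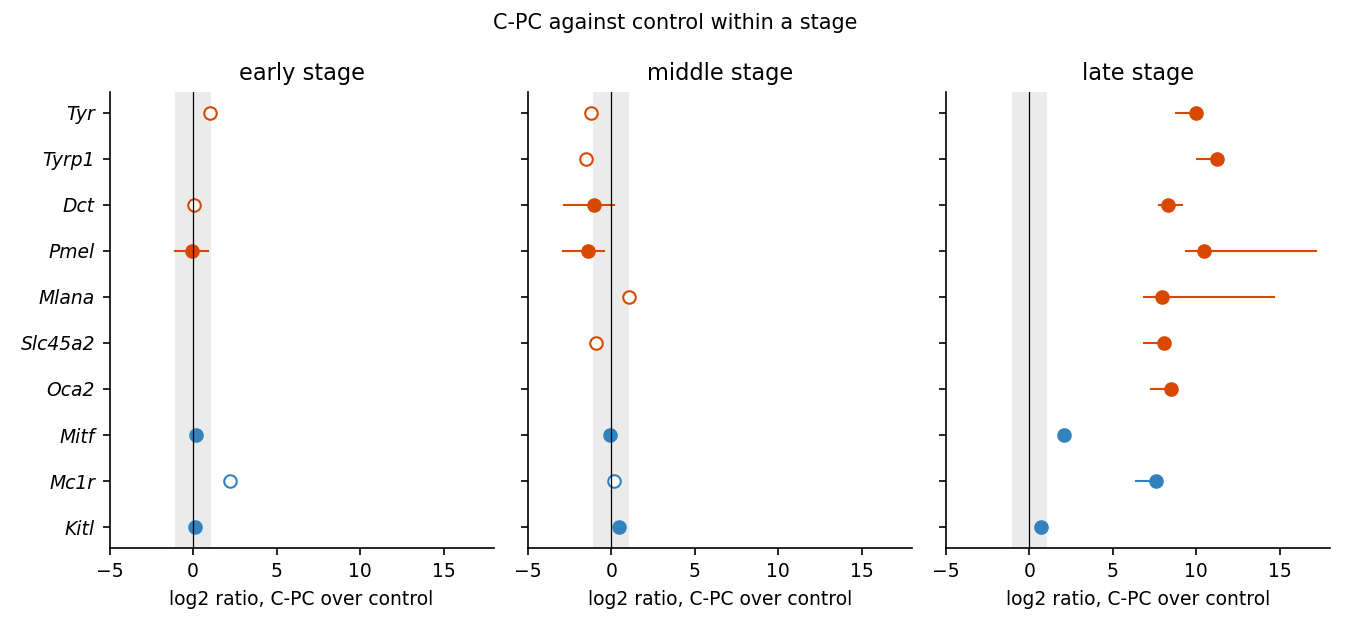
Log2 ratio of C-PC over control for each member by stage, on scaled values plus 2; filled points were compared, open points had under 10 reads in both libraries, bars are 95% counting intervals with an open-ended side not drawn, and the grey band marks less than 2-fold. At the late stage the 7 melanin genes lie from 7.97 to 11.23 and Kitl inside the band at 0.71, while at the middle stage Pmel and Dct lie below it.

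In the early pair no member compared differed by 2-fold. Of the 3 that were compared, Pmel had a log2 ratio of -0.09 (-1.09 to 0.88), Mitf of 0.16 (-0.01 to 0.34) and Kitl of 0.12 (-0.01 to 0.24). Among all 16589 genes compared 3.38% were at least 2-fold higher and 7.6% lower, against 0 of these 3 members in either direction. Mc1r, with 7 reads against 0, and Tyr, with 2 against 0, were under the minimum of 10 reads.

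At the middle stage 2 of the 4 members compared were lower with C-PC and none was higher, where 28.8% of 17076 genes compared were lower and 23.8% higher. Pmel went from 32 to 8 reads, a log2 ratio of -1.39 (-2.90 to -0.42), and Cdk2, which overlaps it, had a ratio of -1.53. Dct went from 19 to 6 reads, a ratio of -1.03 whose interval of -2.85 to 0.15 includes equality. Mitf had a ratio of -0.09 (-0.27 to 0.10), or -0.63 when scaled by total reads. Kitl had a ratio of 0.46 (0.34 to 0.57), which turned to -0.09 when scaled by total reads, a scaling that took the all-gene median from -0.13 to -0.66 and the share of calls that are higher from 45.3% to 28.5%. Both lower calls rest on few reads, and with a pseudocount of 8, or with at least 30 reads required, 1 call was left.

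Per gene length the members of late C-PC fell into levels that did not follow the read counts. In RPKM (CPM per kilobase, with the gene lengths of the deposited tables), Pmel was highest at 146.5 (95% Poisson interval 142.7 to 150.4), followed by Tyrp1 at 123.8 (120.7 to 127.0). Dct at 99.6 (97.7 to 101.6) and Mlana at 95.5 (89.7 to 101.5) had overlapping intervals. Mlana, a short gene with 1013 reads, therefore stood beside Dct with 10001. Tyr followed at 21.1 (20.2 to 21.9), below Tyrp1 and Dct by a wide margin, and Kitl at 19.2 (18.3 to 20.1). Slc45a2 at 13.3, Oca2 at 13.2 and Mitf at 12.6 had overlapping intervals, and Mc1r was lowest at 7.76 (7.08 to 8.49). The order rests on the annotated lengths, such as 7108 bases for Tyr and 623 for Mlana. The intervals do not cover any difference between these and the lengths of the transcripts present.

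In the 5 other libraries Kitl and Mitf stood above every melanin gene per length. Kitl, between 8.03 and 13.8 RPKM, stood above Mitf, between 2.05 and 5.91 RPKM, in each, as in late C-PC. No melanin gene passed 0.880 RPKM there, the value of Pmel in the middle control.

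**Figure D3:**
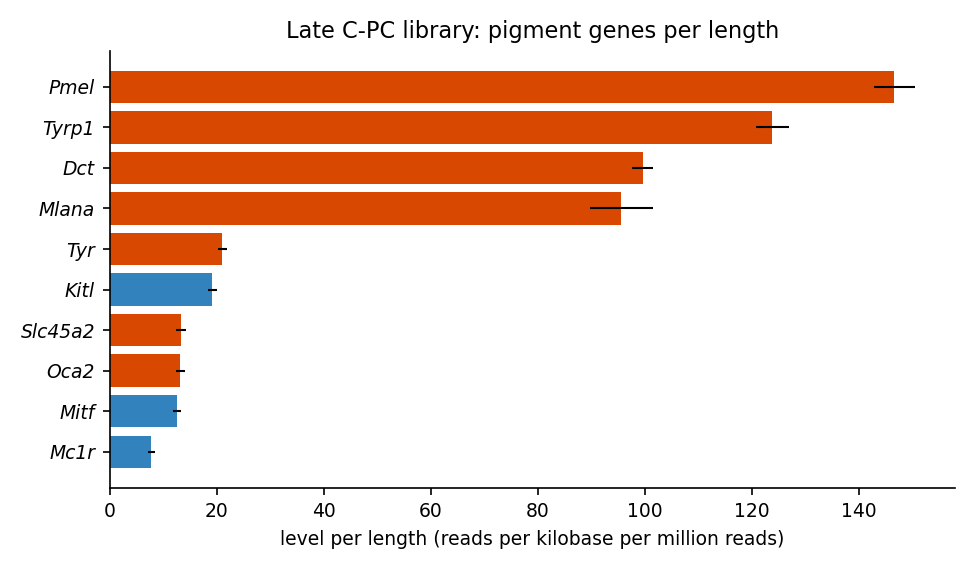
Level per gene length of the 10 members in the late C-PC library, in RPKM, with 95% Poisson bars. Pmel, Tyrp1, Dct and Mlana lie between 95.5 and 146.5 RPKM, and the other 6 members between 7.76 and 21.1 RPKM.

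Summed over the 7 melanin genes, late C-PC held 26811 reads and the other libraries between 20 and 66. The sum was 1574 CPM (1555 to 1593) in late C-PC, 4.16 CPM (3.22 to 5.29) in the middle control and 1.16 to 1.31 CPM in the remaining 4 libraries. Late C-PC was 378-fold above the middle control (297 to 489), the next highest, and 0.157% of its reads on genes came from these 7 genes. The summed level of the 3 lineage genes varied less, from 60.2 CPM in the late control to 219.6 CPM in late C-PC. For each Mitf read there were 20.2 melanin gene reads in late C-PC, and between 0.0387 and 0.114 in the other libraries.

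Genes that build and move melanosomes, a list of 33 with other uses in many cells, differed in part. At the late stage 15 of the 32 compared were at least 2-fold higher with C-PC, 0 lower and 17 under 2-fold, with a median log2 ratio of 0.87. Of all genes 27.3% were higher and 23.4% lower. With scaling by total reads 21 genes of the list were higher, beside 6997 of all 17073 genes compared. The largest ratio was that of Slc24a5, a cation exchanger of the melanosome, at 609 reads against 0 and at least 132-fold higher. Trpm1, a channel gene of melanocytes, had 4793 reads in late C-PC and 12 in the control, giving a log2 ratio of 7.84 (7.21 to 8.97), and Slc7a11, the cystine transporter that feeds pheomelanin synthesis, 715 against 2, a ratio of 7.01. Rab38, a small GTPase that brings melanin enzymes to the melanosome, had a ratio of 5.18.

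Gpnmb, a melanosome protein related to Pmel and also made by macrophages, had 3404 and 10451 reads in the early pair, 5021 and 261 in the middle pair, and 143 and 7609 in the late pair, control first. Its log2 ratio was 1.74 early, -3.83 in the middle and 5.10 late, so that it changed side between stages. The 9 macrophage markers summed to 2410 and 2758 CPM in the early pair (0 higher, 0 lower), 2008 and 238 CPM in the middle pair (8 lower, median -2.71) and 156 and 441 CPM in the late pair (5 higher, median 1.00). Their part in the Gpnmb values was not tested. Of all genes compared 3.38% were higher and 7.6% lower early, and 27.3% and 23.4% late. The general sorting genes Ap3d1, Vps11 and Bloc1s6 had late ratios of 0.10, 0.09 and -0.01. In the early pair 2 of the 31 genes compared from this list were higher and 2 lower, with a median of 0.00. In the middle pair 1 was higher and 15 of 31 lower, with a median of -0.92, beside 23.8% higher and 28.8% lower of all genes.

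Among 22 regulators and receptors of the melanocyte lineage, 13 were higher and 4 lower at the late stage, with a median log2 ratio of 2.14, beside the 27.3% and 23.4% of all genes. Tfap2a and Tfap2b, AP-2 transcription factors that keratinocytes also use, had 2151 and 2042 reads against 0 in the control, at least 466-fold and 442-fold higher. Mcoln3, a lysosomal channel, was at least 62.8-fold higher. Lef1, a Wnt pathway factor that is also among the follicle markers used below, had a ratio of 5.59, and Erbb3, a neuregulin receptor, of 3.50. Sox10, the factor upstream of Mitf that Schwann cells also carry, had among the smallest, at 0.41 (0.11 to 0.72) with 134 and 275 reads, and Met and Bcl2 had 0.29 and 0.09.

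For Sox10 the earlier stages differed more, with 26 and 121 reads early (2.25) and 40 and 77 in the middle pair (1.33). Kit, the receptor of Kitl, and Pax3, an activator of Mitf, were chosen after their values were seen. Kit had 436 and 325 reads in the early pair, 634 and 89 in the middle pair and 89 and 1040 in the late pair, control first. Its log2 ratio was -0.30 early, -2.38 in the middle and 2.90 late, so the middle and late pairs lay on opposite sides. Pax3 was not listed early and had 2 and 6 reads in the middle pair and 9 and 100 in the late pair, a late ratio of 2.65. In the middle pair 11 of the 20 genes compared from this list were lower and 3 higher, with a median of -1.16, beside 28.8% and 23.8% of all genes, and in the early pair 2 of 18 were higher and 1 lower, with a median of 0.08.

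Of 20 genes for signals to melanocytes and the switch between pigment types, 15 were compared at the late stage, with 7 higher, 2 lower and a median log2 ratio of 0.71, beside 27.3% and 23.4% of all genes. Corin, a protease of the dermal papilla that limits agouti action, had 818 reads against 0, at least 177-fold higher. Wnt10b, a ligand active in growing follicles, had a ratio of 4.15 and Edn1, endothelin 1, of 2.16. Mrap, a partner of the ACTH receptor that fat cells express, was lower at -3.88 after 4.57 in the middle pair, and Tgfb2 was lower at -2.46. The smallest late ratios were those of Atrn at 0.71, Mgrn1 at -0.65 and Mc5r at 0.31. In the middle pair 5 of the 16 compared were higher and 5 lower, with a median of -0.40, beside 23.8% and 28.8% of all genes. By total reads 4 were higher and 8 lower there, beside 2767 and 6934 of all 17076 genes compared. Requiring at least 30 reads gave 5 and 3, beside 3425 and 3995 of 14630 genes. In the early pair 1 of 12 was higher and 2 lower, with a median of -0.18. The agouti gene, named a in the tables and chosen after its values were seen, had 8, 9, 17, 0, 0 and 7 reads in the order used above.

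**Figure D4:**
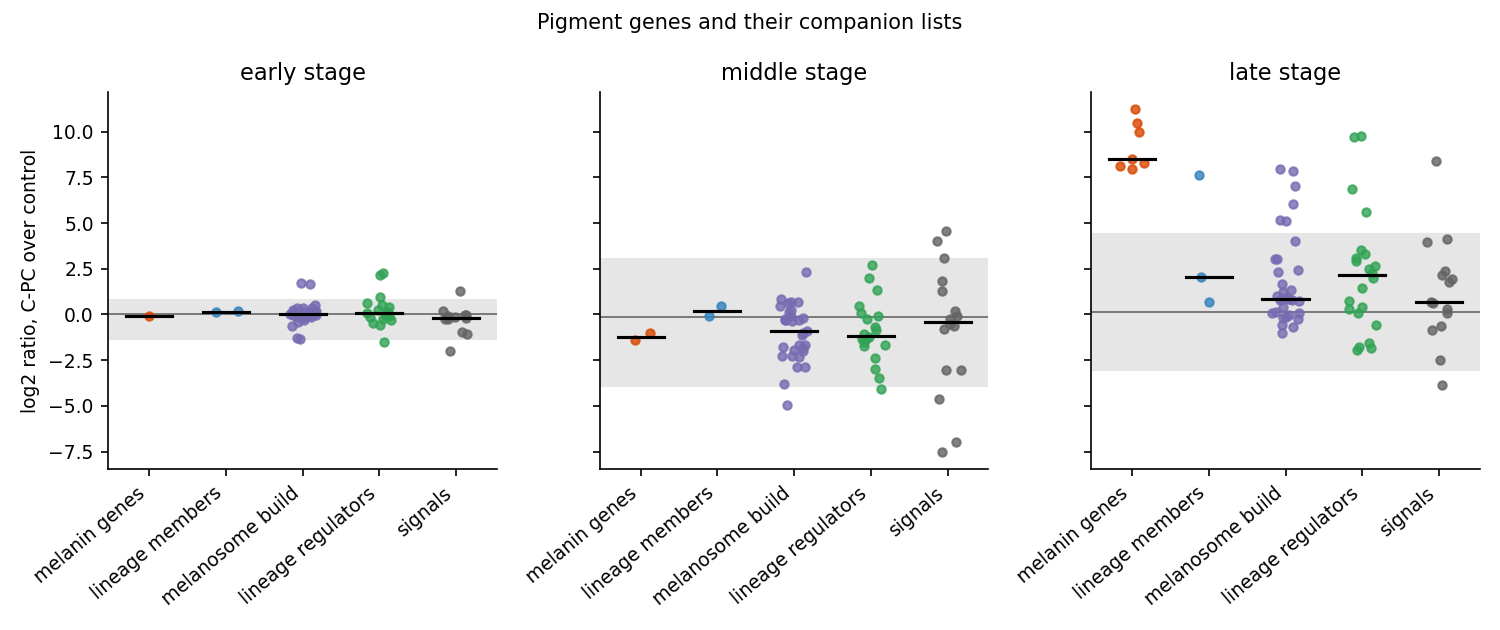
Log2 ratio of C-PC over control of every compared gene by list and stage, with a black bar at each list's median; the grey line is the median of all genes compared and the grey band their central 90%. The late medians were 8.49 for the melanin genes, 2.06 for the lineage members, 0.87 for melanosome build and transport, 2.14 for lineage regulators and receptors and 0.71 for signals.

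Markers of other cell types moved with the melanin genes. Their late calls stand beside 27.3% of all genes higher and 23.4% lower. Of 15 hair follicle markers 14 were listed, and all 14 were at least 2-fold higher in late C-PC, where their sum was 47871 CPM against 1.67 CPM in the late control, in which 9 of them (among them Krt71, Krt25 and Foxn1) had 0 reads. Their sum was 82.7 CPM in the middle control and between 0.524 and 3.94 CPM in the other 3 libraries, so late C-PC and the middle control were the highest for the follicle sum as for the melanin sum. All 10 epidermal markers were higher in late C-PC as well, 4141 CPM against 5.13 CPM, with 5 of them at 0 reads in the late control, and their sum was 2227 CPM in the middle control and 2.22 to 7.66 CPM in the other 3. The part of these differences in the melanin gene ratios was not tested.

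Muscle and fat markers moved the other way at the late stage. Of all genes compared there, 27.3% were at least 2-fold higher and 23.4% lower. Calls are on the authors' scaling, while the sums are in CPM by total reads. All 10 skeletal muscle markers were lower in late C-PC, with sums of 1918 and 127052 CPM, and all 8 adipocyte markers, with sums of 2918 and 15502 CPM. Of 12 Schwann cell markers 9 were lower and 1 higher (421 against 949 CPM), of 9 mast cell markers 5 were higher and 1 lower (136.8 against 57.7 CPM), and of 9 macrophage markers 5 were higher and 0 lower (441 against 156 CPM). Of 10 fibroblast and dermal papilla markers compared 5 were higher and 2 lower, and of 8 endothelial markers 7 were lower. Markers of these 5 kinds of cell were read in all 6 libraries, and their part in the Mitf, Kit or Kitl values was not tested.

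The ratio of melanin gene reads to follicle marker reads differed widely between libraries. There were 50.3 melanin gene reads per 1000 follicle marker reads in the middle control (38.7 to 64.4) and 32.9 in late C-PC (32.5 to 33.3), whose intervals do not overlap. In the late control, with 27 follicle marker reads, the ratio was 777.8 (418 to 1428). It was 323.9 in the early control, 400.0 in early C-PC and 2222 in middle C-PC, on between 9 and 71 follicle marker reads. Leaving out Pmel, some of whose reads outside late C-PC may be Cdk2, gave 25.9 (17.9 to 36.4) in the middle control, 25.9 (25.5 to 26.2) in late C-PC and 740.7 (394 to 1371) in the late control. It gave 28.2 (3.35 to 105.6) in the early control, on 2 melanin gene reads, and 72.7 (19.1 to 197.0) in early C-PC, on 4. Both early intervals include 25.9, but with 2 and 4 melanin gene reads they are too wide to show likeness to it. In middle C-PC the ratio without Pmel was 1333 (516 to 3583). This ratio and the omission of Pmel were chosen after the values were seen. Per 1000 epidermal marker reads the melanin genes had 1.87 reads in the middle control and 380.1 in late C-PC.

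**Figure D5:**
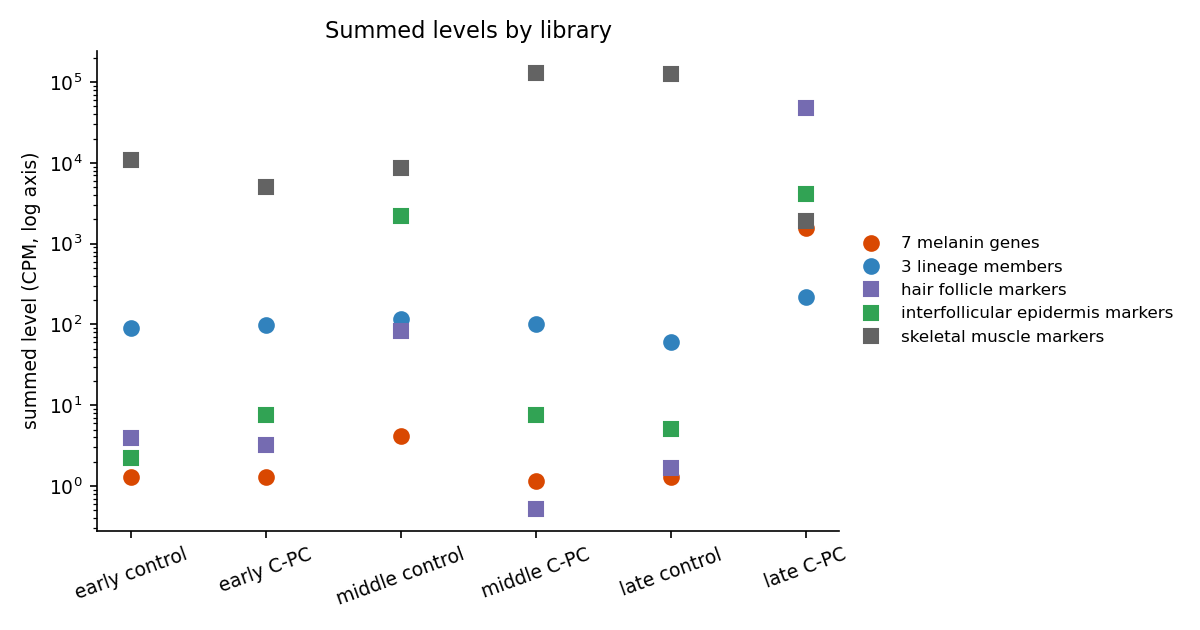
Summed level in each library, in CPM on a log axis, of the 7 melanin genes, the 3 lineage members, and the markers of hair follicle, epidermis and skeletal muscle. Melanin and follicle sums are highest in late C-PC (1574 and 47871 CPM) and next in the middle control (4.16 and 82.7 CPM), while muscle is highest in the middle C-PC and late control libraries.

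Over the 3 stages together no member passed the test for a C-PC effect. The fit could test 4 members, Dct, Pmel, Mitf and Kitl, since the other 6 had too few reads in most libraries to pass edgeR's expression filter; unlisted values entered as 0. By limma with the stage as a block, 0 of the 4 members had an adjusted p under 0.05, and 0 an unadjusted one, as with edgeR and DESeq2. Across all 16958 genes tested limma called 0% (0 genes, 143 at an unadjusted p under 0.05), edgeR 0 (137) and DESeq2 0.248% (42 genes). The log2 effect was 2.44 for Dct (SE 2.14, adjusted p = 1.00), 3.00 for Pmel (SE 2.68, adjusted p = 1.00), 0.71 for Mitf (SE 0.58, adjusted p = 1.00) and 0.43 for Kitl (SE 0.35, adjusted p = 1.00), all by limma. Dct and Pmel were higher with C-PC in the late pair by far, and without that stage their effects were -0.48 and -0.74. The 95% intervals ran from -3.42 to 8.30 for Dct and from -0.52 to 1.37 for Kitl.

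Between stages, with the treatment as covariate, no member passed the adjusted threshold either. By limma 0% of the 16958 genes were called in each of the 3 comparisons of stages, with 191, 1120 and 152 genes at an unadjusted p under 0.05 for middle against early, late against early and late against middle; edgeR also called 0 (127, 935 and 163). The late minus early log2 difference of Dct was 7.06 (SE 2.60, limma adjusted p = 0.747), on 19 and 10001 reads late and 2 in each early library. At an unadjusted p under 0.05, late against early, limma had 0 of the 4 members and edgeR 1, which was Dct. The same contrast was 2.79 for Pmel, 0.25 for Mitf and 0.55 for Kitl, with adjusted p from 0.847 to 0.930 by limma. With 2 residual degrees of freedom the error joins sample spread with changes of the C-PC difference from stage to stage, which cannot be told apart, and a treatment by stage term has no residual. Nothing in the labels says that libraries are separate animals, so these p-values apply only to these samples, with that joint error.

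The genes whose levels over the 6 libraries were most like the mean profile of the melanin genes included 4 hair keratin-associated protein genes among the nearest 6. Likeness was Pearson's r of log2(CPM + 0.5) over 6 libraries among 13169 genes with at least 5 CPM in 1 library, given as a description since 1 library dominates it. The closest were Krtap28-10, Krtap28-13, Krtap4-1, Krtap1-4, Gm47959 and Gm47955, each with r of 1.00 after rounding. Krtap4-1 stood at 481.9 CPM in late C-PC, 0.315 CPM in the middle control and 0 in the other 4 libraries. In all, 567 genes had r above 0.95 with this profile.

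Mitf was nearest to Ift88, a gene of transport in cilia, Rnf185, a ubiquitin ligase gene, and Pus7, a pseudouridine synthase gene, with r of 0.996, 0.996 and 0.995 and 204 genes above 0.95. Ift88 ranged from 4.94 CPM in the late control to 17.8 CPM in late C-PC. Mc1r was nearest to Tm4sf4, Capn8 and A030005L19Rik, each with r of 0.997, and Kitl to Fam120b, 2310030G06Rik and Oser1, with r of 0.990, 0.982 and 0.982. For Kitl 16 genes passed 0.95, and for Mc1r 457.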

How the data were processed

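RNA sequencing libraries of mouse skin were used, 1 for each of 2 treatments at 3 stages of wound healing. Per the labels' protocols, RNA came from a column kit and libraries from a kit without strand marks. An aligner or counter is not given in the sources used here. In the submitters' processing notes hg38, a human build, is the 1 build named. The identifiers are of mouse: all 10 members are in GENCODE M21 (GRCm38), 9 with the same coordinates, and coordinates are printed as the tables have them.

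For each stage the authors deposited 1 table. Per gene and library it holds a signal, worked out from the values to be read counts that the authors brought to 1 library size within the pair. At least 99.97% of values per library gave whole reads within 0.1 read, and every listed gene has at least 2 reads over its pair. The tables were scaled separately, so levels across stages use recovered reads. Per the file headers the authors also deposited log2 fold changes, p-values and adjusted p-values.

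Within a stage, the log2 ratio of scaled values plus a pseudocount of 2, which understates changes of low genes, was computed for genes with at least 10 reads in 1 of 2 libraries. A gene was called at 2-fold. Intervals are exact conditional binomial for ratios and exact Poisson for levels (95%), from recovered reads, and a fold against 0 reads uses a floor of 3 reads per library. Such a fold is on the authors' scaling of the pair, and its 95% interval reaches somewhat lower than the floor. CPM use all reads on genes as the total, with no TMM factor. limma 3.58.1 (trend, robust) was fitted to log2 values over 6 libraries, on scaled values plus 2 for C-PC and on TMM log2 CPM for stages, two-sided with Benjamini-Hochberg adjustment over 16958 genes. edgeR 4.0.16 and DESeq2 1.42.0 on recovered reads were alternatives, and the tests were tried on simulated counts. Other alternatives were the scaling, the pseudocount, the filter, the covariate and leaving out a stage.

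The members and lists were chosen with earlier results of these data known. All 10 members are named. From each companion list the named genes are the 5 with the largest and the 3 with the smallest absolute late ratio at a mean of at least 5 CPM, and for likeness the 6 or 3 closest genes. Promoters are RefSeq's.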

Additional observations from a re-analysis of the deposited data

Results flagged for a closer look

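Dct and Pmel had opposite ratios at 2 stages. The log2 ratio of C-PC over control was -1.03 for Dct at the middle stage and 8.30 at the late stage. For Pmel it was -1.39 at the middle stage and 10.47 at the late stage. With 1 library for each treatment and stage, the difference between stages was not tested. The middle ratios rest on 19 and 6 reads of Dct and on 32 and 8 reads of Pmel, and the Dct interval there includes equality. Cdk2, which overlaps Pmel, had 553 and 141 reads in that pair, and the Pmel counts there cannot be told apart from reads of Cdk2.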

How the results depend on the processing

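The count of 9 members higher in late C-PC stayed between 9 and 10 under the alternatives tried. The counts at the other stages moved with the minimum of reads. With no minimum, 2 of the 6 members listed were at least 2-fold higher early and 1 of 9 in the middle pair, where 0 were higher before. Of all genes 1905 of 22894 were then higher early and 5369 of 22889 in the middle pair. Each call so added rests on under 10 reads in both libraries. The 2 members lower in the middle pair became 4 with no minimum, 1 with at least 30 reads and 1 with a pseudocount of 8. Of all genes 6384 of 22889, 3995 of 14630 and 4521 of 17076 were lower at these 3 settings. Leaving out each stage in turn, the C-PC effect ranged from -0.48 to 4.18 for Dct and from -0.74 to 5.19 for Pmel, the lowest values without the late stage. A pseudocount of 8 lowered the median late ratio of the members to 6.49, since most late control counts are near 0. The sum of the melanin genes in late C-PC stood 350-fold above the middle control after TMM over the 6 libraries, and 404-fold when muscle, follicle and mitochondrial genes were left out of the total. Control and C-PC libraries were set against each other within a stage by the stage block, and without that block the tested members also had 0 calls; the labels give no replicate numbers to pair by. At these depths 3 reads are 0.166 to 0.189 CPM, so melanin genes at 0 were not detectable below that level.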
